A study of Mus musculus with 6 samples.

Results

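The genes described here are 37 genes of mitosis, chosen by symbol with earlier results of these data known. They form a list of mitotic cyclins and kinases, spindle checkpoint, kinetochore, kinesin and cytokinesis genes. All 37 were found among the 55416 genes of the table, and all 37 passed the filter on low counts that left 17659 genes to test. RNA came from primary keratinocytes, the cells that form the epidermis, isolated from skin of wild type and Cebpb knockout mice of a C57BL/6J:129 hybrid background at 1 to 2 days of age. Cebpb encodes the transcription factor C/EBPβ. All cells were cultured in 0.05 mM calcium with EGF, exposed 5 days after plating to UVB at 10 mJ/cm2 (lamp of 312 nm), and collected 8 h later. There were 3 wild type libraries (replicates 1, 2 and 3) and 3 knockout libraries (replicates 4, 5 and 6). Every library was irradiated, so the comparison is between genotypes after UVB and does not measure the response to UVB. Whether replicates are separate litters, animals or dishes is not stated, so the p-values below reflect only the spread among 6 libraries, which may be technical.

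In a dividing cell, cyclin-dependent kinase 1 bound to cyclins A and B drives entry into mitosis, and Polo-like and Aurora kinases build the spindle. Kinetochores attach chromosomes to microtubules, and the spindle checkpoint holds back the anaphase-promoting complex (APC/C), a ubiquitin ligase, until all are attached. Kinesins, motor proteins that walk along or take apart microtubules, position chromosomes and organise the central spindle where the cell is cut by cytokinesis. Many of these genes are transcribed together in G2 and mitosis, through promoters that carry a CCAAT box, bound by NF-Y, and a cell cycle genes homology region (CHR), bound by the MuvB core of the repressive DREAM complex and of the activating B-MYB and FOXM1 complexes.

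RefSeq promoter windows of build GRCm38.p6, from 250 bases before to 50 bases after an annotated start, were at hand for 33 of the 37 genes. No window was at hand for Aurkb, Ccna2, Kif20a and Tpx2. CHR letters, TTTGAA or TTCGAA on either strand (TTCAAA is the reverse of the first), stood in the window of 26 of the 33 genes (78.8%) and in 21.7% of all 27025 genes with windows of this length. Within 50 bases of the start they stood in 24 of 33 (72.7%), against 6.12% of all genes. CCAAT letters, CCAAT or its reverse ATTGG, stood in 23 of 33 (69.7%), against 41.1% of all genes. Both CCAAT letters in the window and CHR letters within 50 bases of the start were found in 20 of 33 (60.6%), against 2.99%. The 2 motifs shared a base in 1 place. Such matches describe the letters and are not measured binding sites. The stretches below are the 100 bases before the start, with CHR and CCAAT letters in capitals. Cdk1, Cdc20, Ube2c, Kif11 and Kif22, which rose, and Espl1, which was not called, are 6 of the 9 genes whose CHR letters near the start lie before it. In the other 15 of the 24 genes they lie after the start, outside stretches of this kind. Both remaining genes, Mad2l1 (called) and Kif18a (not called), hold neither motif.
Cdk1 at chr10:69352913-69353012, minus strand: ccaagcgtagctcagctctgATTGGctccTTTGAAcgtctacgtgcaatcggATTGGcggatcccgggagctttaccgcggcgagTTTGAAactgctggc
Cdc20 at chr4:118437344-118437443, minus strand: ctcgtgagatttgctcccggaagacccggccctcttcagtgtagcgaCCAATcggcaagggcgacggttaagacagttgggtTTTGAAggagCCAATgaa
Ube2c at chr2:164769829-164769928, plus strand: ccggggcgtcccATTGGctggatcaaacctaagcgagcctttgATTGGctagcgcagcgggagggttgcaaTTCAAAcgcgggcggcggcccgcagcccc
Kif11 at chr19:37376282-37376381, plus strand: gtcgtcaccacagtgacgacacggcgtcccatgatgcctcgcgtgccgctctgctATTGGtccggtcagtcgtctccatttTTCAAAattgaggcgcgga
Kif22 at chr7:127042421-127042520, minus strand: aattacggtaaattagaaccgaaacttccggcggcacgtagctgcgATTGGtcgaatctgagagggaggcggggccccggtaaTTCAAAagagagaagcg
Espl1 at chr15:102296193-102296292, plus strand: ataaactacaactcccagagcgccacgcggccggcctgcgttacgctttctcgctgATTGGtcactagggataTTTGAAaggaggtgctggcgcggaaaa
Mad2l1 at chr6:66535121-66535220, plus strand: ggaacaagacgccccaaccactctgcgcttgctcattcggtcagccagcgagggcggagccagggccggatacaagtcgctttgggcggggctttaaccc
Kif18a at chr2:109280638-109280737, plus strand: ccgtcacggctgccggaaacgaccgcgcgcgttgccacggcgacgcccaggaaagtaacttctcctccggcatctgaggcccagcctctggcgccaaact

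**Figure D1:**
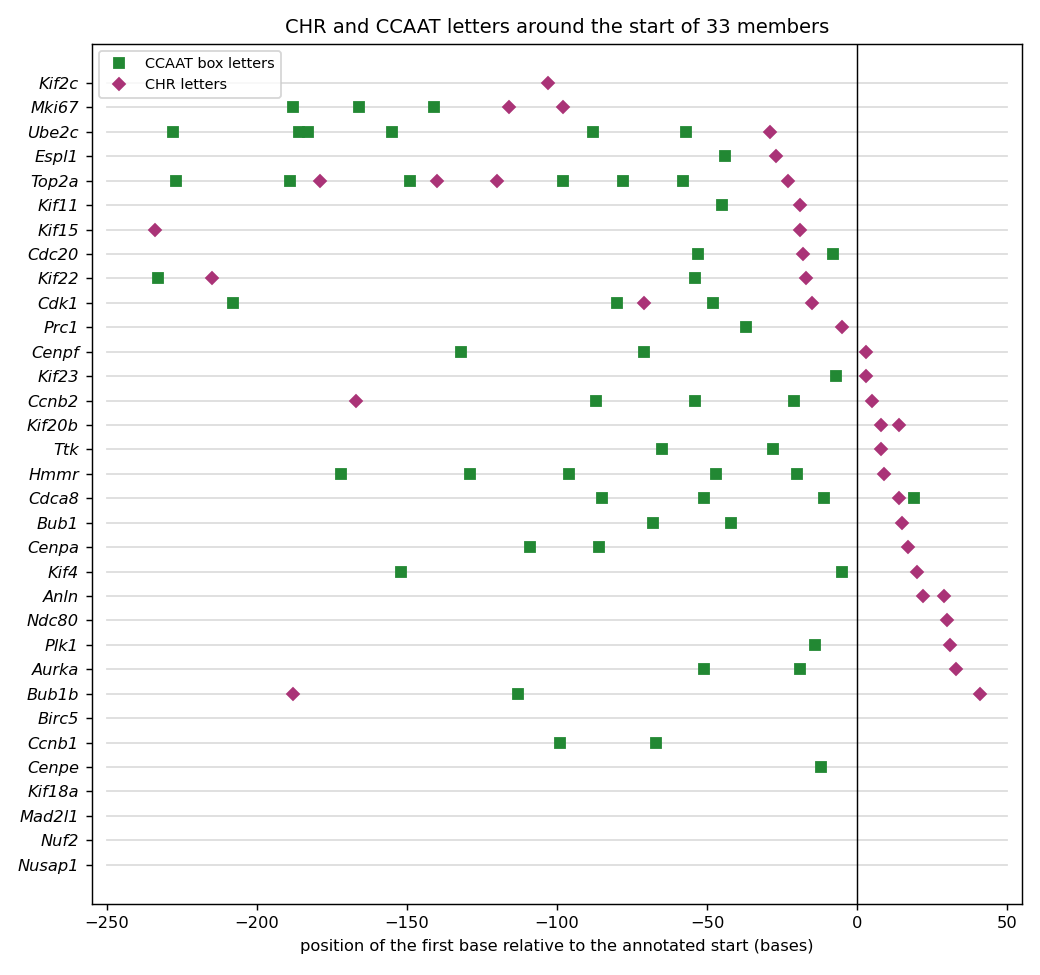
Positions of CHR letters (diamonds) and CCAAT letters (squares) in the promoter windows of 33 members, in bases from the annotated start, with genes ordered by their CHR position nearest the start. CHR letters lie within 50 bases of the start in 24 of the 33 genes.

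Genes with and without CHR letters near the start had like medians. Nearly all genes of both groups rose, so this comparison says little about the letters, and no test was made. Of the 24 genes with CHR letters near the start, 23 rose in knockout cells, with a median log2 fold change of 0.94. Of the 9 without, 8 rose, with a median of 0.92. Among these 9 are the 5 that hold neither motif in the window (Birc5, Kif18a, Mad2l1, Nuf2 and Nusap1), of which 4 rose.

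Libraries held 107757415 to 122797031 counts in wild type and 81256192 to 92987497 counts in knockout, so depth moved with genotype. Levels are in CPM (counts of a gene scaled to one common library total) after TMM scaling (edgeR's trimmed mean method, which sets libraries to a common level over most genes), and changes are log2 fold changes of knockout over wild type with their standard errors, from edgeR's quasi-likelihood test. Calls were made where the p, adjusted by Benjamini-Hochberg over all genes tested, was under 0.05. Cebpb itself (ENSMUSG00000056501) lay at 121 to 163 CPM in wild type and at 0.82 to 1.10 CPM in knockout libraries (log2 fold change -7.26 ± 0.14). Keratinocyte markers were abundant in both genotypes. Their 12 genes summed to 44335 to 49328 CPM in wild type and to 26783 to 27612 CPM in knockout libraries, with 10 of 12 called lower (83.3%). This count and those of the next lists are to be read beside all genes tested, of which 24.8% were called higher and 23.7% lower. Of the markers of other cells, 1 of 9 tested fibroblast genes was called higher and 2 lower, and the list of 12 summed to 43.0 to 50.8 CPM in wild type and 57.2 to 63.8 CPM in knockout libraries, with Lum at 0 and Col3a1 at no more than 6 counts in a library. The gene called higher was Postn, with 0.775 ± 0.302 CPM (wild type) against 13.4 ± 2.33 CPM (knockout, SD, n = 3 each; log2 fold change 4.11), and most of the sum was Fbln1, at 34.3 to 39.2 CPM and 38.9 to 41.8 CPM. Melanocyte genes had 0 of 8 higher and 5 lower (62.5%), with sums of 697 to 786 CPM in wild type and 609 to 691 CPM in knockout libraries. Of 10 leukocyte genes, 4 were tested, with 1 higher (Trdc, at no more than 0.0688 CPM in wild type and 0.323 to 0.582 CPM in knockout libraries) and 3 lower, Cd3e at 0, and sums of 49.1 to 59.5 CPM and 28.7 to 32.3 CPM. Of 8 endothelial genes, 5 were tested, with 2 higher (Flt1 by 0.81 and Egfl7 by 0.39) and 1 lower. Cdh5 and Emcn were at 0, and the list summed to 15.9 to 16.9 CPM and 18.6 to 22.1 CPM. Median log2 fold changes of the tested genes were -0.70 for keratinocyte, -0.22 for fibroblast, -0.22 for melanocyte, -0.65 for leukocyte and 0.08 for endothelial markers. Y-linked transcripts summed to 60.7 to 68.1 CPM in wild type and to 0.101 to 0.158 CPM in knockout libraries, so the sex of the cells moved with genotype. Depth and sex moved with genotype in every library, so their part in the results cannot be told apart from that of genotype. The part of the marker differences in the results was not tested.

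Of the 37 mitosis genes, 34 rose in knockout cells, 0 fell and 3 (Tpx2, Espl1 and Kif18a) were not called. Among all genes tested, 24.8% were called higher and 23.7% lower, together 48.6%. The median log2 fold change of the 37 genes was 0.92, where the median of all genes tested was 0.01, and 11.2% of all genes tested lay above 0.92. The middle 50% of the 37 genes lay between 0.71 and 1.06, and 15 of them more than doubled. All 3 knockout libraries stood above all 3 wild type libraries in 34 genes, which was so for 28.7% of all genes tested. These 34 are not the genes called: Tpx2 was apart but not called, and Ttk was called with groups that overlap. With library totals in place of TMM, the median of all genes moved up by about the same amount as that of the 37 genes, to 0.21 and 1.13, and 35 of the 37 were called higher. In that scaling 6478 of all genes were called higher and 2452 lower, so higher calls were 72.5% of all calls, against 51.1% with TMM.

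The levels were low, from 0.291 CPM (Kif18a) to 11.2 CPM (Mki67 and Top2a) on average in wild type and from 0.250 to 22.4 CPM in knockout libraries, with 20 to 2303 counts of a gene in a library. Summed over the 37 genes, wild type replicates 1, 2 and 3 held 128, 140 and 146 CPM, and knockout replicates 4, 5 and 6 held 259, 244 and 238 CPM. Wild type replicate 1 was the lowest of its group in 21 of the 37 genes, and knockout replicate 4 the highest of its group in 19. In a bulk sample, more cells in G2 and mitosis and more RNA per such cell cannot be told apart.

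**Figure D2:**
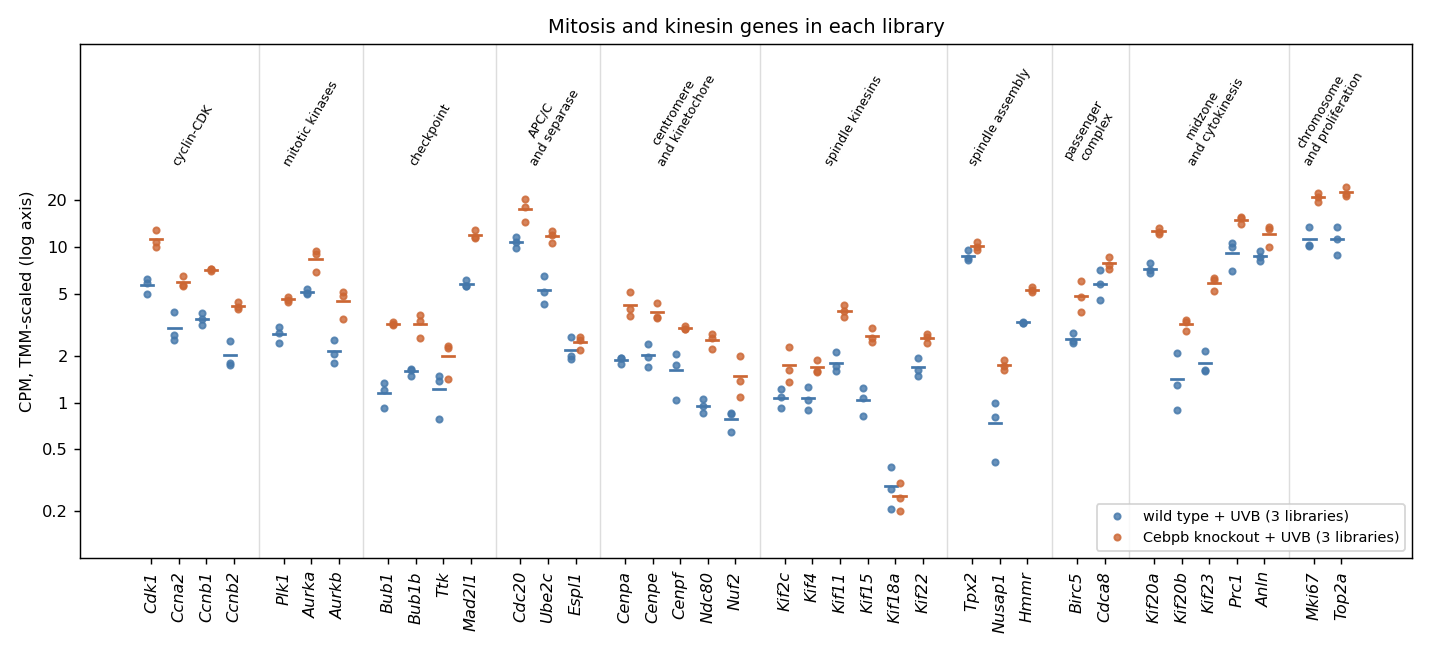
CPM (TMM-scaled, log axis) of each of the 37 genes in each of the 6 libraries, grouped by role, with wild type in blue, knockout in orange and horizontal lines at group means. The groups overlap only in Ttk, Espl1 and Kif18a.

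All 4 cyclin and CDK genes rose, by between 0.96 and 1.05 log2 units. Cdk1 (ENSMUSG00000019942), the kinase of mitotic entry, stood at 4.97, 6.25 and 5.84 CPM in wild type replicates 1 to 3 and at 12.8, 9.99 and 10.7 CPM in knockout replicates 4 to 6. It rose by 0.97 ± 0.13 log2 units (SE, adjusted p = 1.22e-05). The partner Ccnb1, cyclin B1, lay at 3.14, 3.45 and 3.78 CPM against 7.03, 7.16 and 7.22 CPM, a rise of 1.05 ± 0.13 (adjusted p = 5.17e-06). Its 3 knockout values lay within a few percent of each other, while the wild type values spread more. For Ccnb2, cyclin B2, the values were 2.50, 1.75 and 1.80 CPM against 4.10, 4.45 and 3.97 CPM (1.05 ± 0.17, adjusted p = 8.69e-05). For Ccna2, cyclin A2, which acts in S phase and in early mitosis, they were 2.71, 3.84 and 2.53 CPM against 6.46, 5.58 and 5.69 CPM (0.96 ± 0.16, adjusted p = 0.000135). The groups of all 4 genes stood apart, and the 4 changes lay within 1 SE of each other. Exons of Ccna2 overlap by 510 bases with Exosc9 on the other strand, which had 35863 counts over all libraries against 2657 for Ccna2. With no strand setting stated for the counting, reads in that overlap cannot be assigned.

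The 3 mitotic kinase genes rose too. Aurkb, the kinase of the chromosomal passenger complex that corrects wrong attachments, stood at 1.79, 2.54 and 2.06 CPM in wild type and 5.12, 4.81 and 3.43 CPM in knockout libraries (1.06 ± 0.18, adjusted p = 0.000157). Plk1, which matures centrosomes and activates CDK1, stood at 2.41, 2.80 and 3.05 CPM against 4.78, 4.58 and 4.43 CPM (0.74 ± 0.15, adjusted p = 0.000512). Aurka, the centrosome and spindle kinase, rose by 0.72 ± 0.13. In both Aurora kinase genes knockout replicate 6 was the lowest of the knockout libraries, at 3.43 CPM for Aurkb and 6.90 CPM for Aurka, and it still lay above every wild type library.

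All 4 checkpoint genes were called higher. Mad2l1 (ENSMUSG00000029910), whose product MAD2 binds and holds CDC20, stood at 5.60, 5.63 and 6.09 CPM in wild type and at 11.3, 12.8 and 11.5 CPM in knockout libraries. Its rise was 1.04 ± 0.11 log2 units (adjusted p = 1.05e-06). The kinase gene Bub1, which recruits checkpoint proteins to kinetochores, rose from 1.16 ± 0.213 to 3.20 ± 0.0808 CPM (SD, n = 3 each), by 1.47 ± 0.19, the second largest change of the 37 genes. Bub1b, which encodes the APC/C inhibitor BUBR1, rose by 1.01 ± 0.18. Ttk, the MPS1 kinase that starts checkpoint signalling, stood at 0.789, 1.38 and 1.48 CPM against 2.30, 1.42 and 2.23 CPM. Its lowest knockout library (replicate 5) lay below the highest wild type library (replicate 3), and its call was the weakest of the 34 (0.71 ± 0.26, adjusted p = 0.0313). Leaving out wild type replicate 1 ended the call of Ttk (0.47, adjusted p = 0.12), as did leaving out knockout replicate 4 (0.58, adjusted p = 0.108) or 6 (0.61, adjusted p = 0.111). Outside the list, the checkpoint genes Bub3 (log2 fold change -0.02) and Mad1l1 (-0.21), named after their values were seen, were not called.

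Of the 3 genes of the APC/C and separase role, 2 rose. Ube2c, the ubiquitin-conjugating enzyme that works with the APC/C, stood at 6.51, 4.28 and 5.09 CPM in wild type and 10.6, 12.0 and 12.6 CPM in knockout libraries, and rose by 1.15 ± 0.14 (adjusted p = 6.34e-06). Cdc20, the activator that the checkpoint restrains, rose by 0.71 ± 0.12, from 10.7 ± 0.929 to 17.5 ± 2.88 CPM. Espl1 encodes separase, the protease that opens cohesin rings at anaphase. It stood at 1.90, 2.00 and 2.62 CPM in wild type and at 2.62, 2.52 and 2.16 CPM in knockout libraries, so the groups overlapped, and it was not called (0.17 ± 0.18, adjusted p = 0.481). Pttg1, which encodes securin, the inhibitor of separase, was called higher by 0.60 ± 0.10.

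All 5 centromere and kinetochore genes rose. Ndc80 (ENSMUSG00000024056), the microtubule-binding core of the kinetochore, stood at 0.861, 0.955 and 1.05 CPM against 2.60, 2.74 and 2.22 CPM. Every knockout library lay at more than 2.1 times the highest wild type library, and the rise was 1.40 ± 0.19 (adjusted p = 1.62e-05). Its partner Nuf2 stood at 0.645, 0.852 and 0.842 CPM against 1.99, 1.08 and 1.38 CPM (0.93 ± 0.26, adjusted p = 0.00741). The call of Nuf2 was lost without knockout replicate 4, its highest library (0.66, adjusted p = 0.0677). The other subunits of the same complex went apart: Spc25 rose by 0.76 ± 0.12, and Spc24 was not called (0.08 ± 0.19, adjusted p = 0.754), both named after their values were seen. Cenpa, the histone variant that marks centromeres, rose by 1.18 ± 0.17 from 1.87 ± 0.0915 to 4.24 ± 0.798 CPM. Cenpe, a kinesin that carries chromosomes to the spindle equator, rose by 0.92 ± 0.17, and Cenpf, a large kinetochore protein, by 0.90 ± 0.22.

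Of the 6 spindle kinesin genes, 5 rose. Kif15, which can keep spindle poles apart beside KIF11, stood at 0.825, 1.07 and 1.23 CPM in wild type and 2.60, 2.46 and 3.01 CPM in knockout libraries (1.37 ± 0.20, adjusted p = 3.15e-05). Kif11, the motor Eg5 that pushes the poles apart, rose by 1.11 ± 0.17, from 1.81 ± 0.267 to 3.88 ± 0.328 CPM. Both stood clear of the wild type range in every knockout library. Kif2c, which takes microtubules apart at centromeres, rose by 0.71 ± 0.23, Kif4, a chromosome-bound motor, by 0.66 ± 0.21 and Kif22, which pushes chromosome arms outward, by 0.63 ± 0.18. The calls of Kif2c and Kif4 were near the threshold: that of Kif2c ended without wild type replicate 1 (0.61, adjusted p = 0.0577) or knockout replicate 5 (0.47, adjusted p = 0.14), and that of Kif4 without wild type replicate 2 (0.55, adjusted p = 0.0685) or knockout replicate 6 (0.58, adjusted p = 0.0688). Kif4 is the only one of the 37 genes on the X chromosome, and its exons overlap by 832 bases with Pdzd11 on the other strand, which had 30284 counts against 814 for Kif4. Kif18a, which dampens chromosome oscillations, was the scarcest gene of the list, with 23, 45 and 28 counts in wild type and 29, 20 and 21 counts in knockout libraries. At 0.206, 0.387 and 0.281 CPM against 0.305, 0.202 and 0.244 CPM its groups overlapped (-0.22 ± 0.44, adjusted p = 0.71). Its SE was the largest of the 37, so the change of Kif18a is only loosely bounded at this depth. The smallest rise among the other kinesin genes was that of Kif22 (0.63 ± 0.18), and the difference from it was not tested.

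Spindle assembly genes differed among themselves. Hmmr, a spindle pole protein, stood at 3.24, 3.30 and 3.26 CPM against 5.11, 5.25 and 5.50 CPM and rose by 0.69 ± 0.13 (adjusted p = 0.000362). Nusap1, which bundles microtubules near chromosomes, rose by 1.24 ± 0.28, with 48 counts in wild type replicate 2 against 110 and 81 in the others. Tpx2 (ENSMUSG00000027469), the activator of Aurora A, stood at 8.53, 8.27 and 9.49 CPM in wild type and at 10.7, 9.89 and 9.56 CPM in knockout libraries. It is one of the more abundant genes of the list, and its groups came within 1.01 times of each other (0.20 ± 0.11, adjusted p = 0.152). With library totals in place of TMM it was called (0.40, adjusted p = 0.00766).

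Both remaining passenger complex genes were called higher. Birc5, which encodes survivin, stood at 2.47, 2.79 and 2.42 CPM in wild type and 6.01, 4.75 and 3.79 CPM in knockout libraries (0.92 ± 0.17, adjusted p = 0.000305). Cdca8, which encodes borealin, stood at 5.74, 7.11 and 4.55 CPM against 8.60, 7.23 and 7.60 CPM, and had the smallest change of the 34 genes called (0.43 ± 0.15, adjusted p = 0.0279). It was not called without wild type replicate 1 (0.42, adjusted p = 0.053) or 3 (0.27, adjusted p = 0.162) and without knockout replicate 4 (0.35, adjusted p = 0.103) or 6 (0.45, adjusted p = 0.0531). Incenp, the scaffold of the complex and not in the list, was called higher by 0.55 ± 0.13, and was named after its values were seen. Within this complex the changes thus ran from 0.43 for Cdca8 to 1.06 for Aurkb.

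All 5 genes of the midzone and of cytokinesis rose, with the largest change of the 37 genes, in Kif23, and one of the smallest among those called, in Anln. Kif23 (ENSMUSG00000032254), the motor of the centralspindlin complex that marks the site of division, stood at 1.59, 1.62 and 2.15 CPM in wild type and 6.28, 5.20 and 6.07 CPM in knockout libraries. Every knockout library held more than 2.4 times the highest wild type level, and the rise of 1.72 ± 0.16 had an adjusted p of 2.67e-07. Anln, the actin-binding protein anillin of the contractile ring, stood at 8.61, 8.12 and 9.34 CPM against 13.0, 9.91 and 13.5 CPM (0.48 ± 0.13, adjusted p = 0.00458). Kif20b, a motor of late cytokinesis, rose by 1.17 ± 0.24, Kif20a, which brings the passenger complex to the midzone, by 0.80 ± 0.11 and Prc1, which bundles midzone microtubules, by 0.70 ± 0.13. Exons of Kif20a overlap by 1271 bases with Cdc23 on the other strand, which had 38767 counts against 5890 for Kif20a and was itself called higher (0.40 ± 0.08), a gene named here for its overlap after its values were seen. Exons of 11 of the 37 genes overlap another gene in GENCODE M21, and 7 more of these overlaps are with a counted gene on the other strand, namely those of Cdc20, Cdca8, Kif18a, Kif22, Nusap1, Prc1 and Ube2c.

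The 2 general markers of dividing cells rose alike. Mki67, which encodes the chromosome coat protein Ki-67, stood at 10.2, 10.1 and 13.4 CPM in wild type and 22.1, 19.4 and 20.9 CPM in knockout libraries (0.89 ± 0.12, adjusted p = 8.51e-06). Top2a, the topoisomerase that untangles sister chromosomes, stood at 8.88, 11.1 and 13.4 CPM against 24.2, 21.7 and 21.2 CPM (1.01 ± 0.13, adjusted p = 6.22e-06). In both, wild type replicate 3 was the highest wild type library and knockout replicate 4 the highest knockout library.

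**Figure D3:**
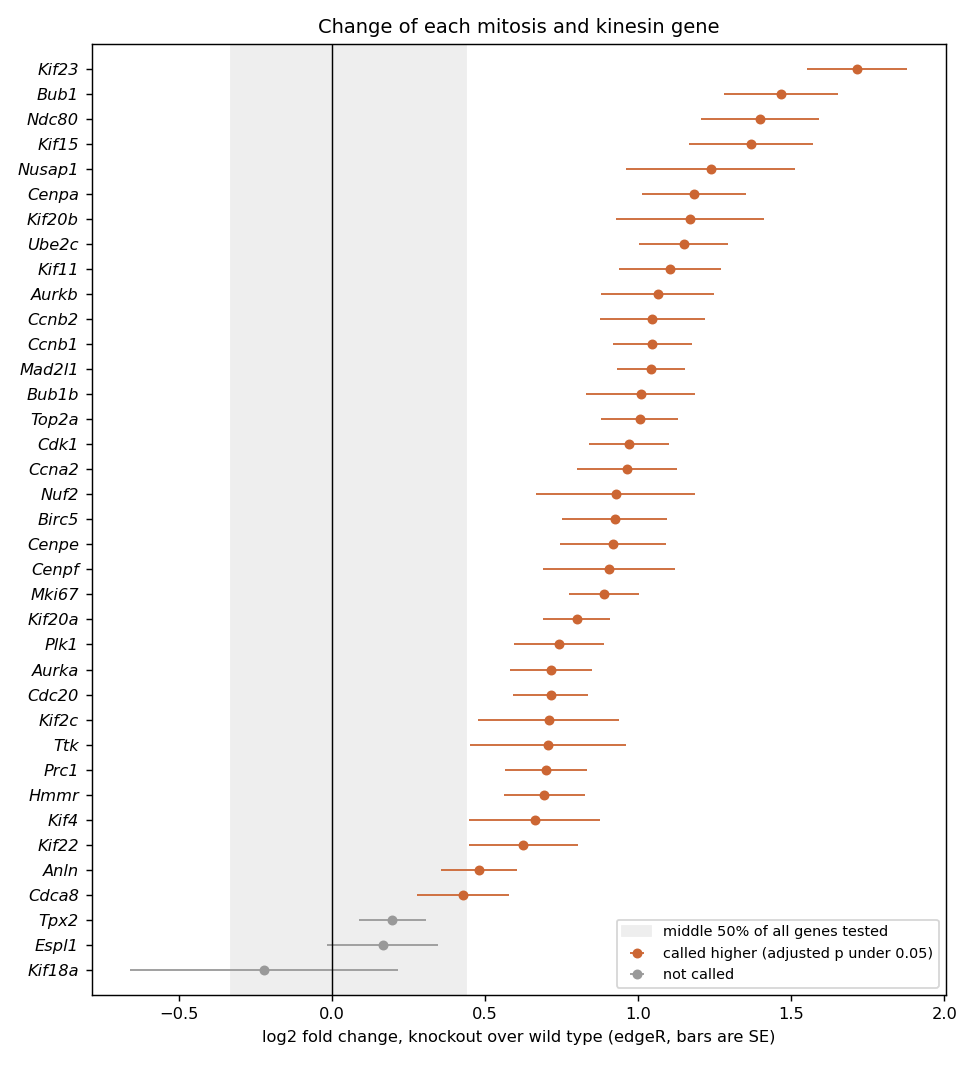
Log2 fold change of knockout over wild type of each of the 37 genes (points, with SE as bars), ordered by size, beside the middle 50% of all genes tested (grey band, -0.33 to 0.44). Changes run from -0.22 for Kif18a to 1.72 for Kif23, and the 3 genes not called are in grey.

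Set side by side, the median log2 fold changes were 1.01 for the 4 cyclin and CDK genes (range 0.96 to 1.05), 1.03 for the 4 checkpoint genes (0.71 to 1.47), 0.93 for the 5 centromere and kinetochore genes (0.90 to 1.40) and 0.80 for the 5 midzone and cytokinesis genes (0.48 to 1.72). The ranges of these 4 roles overlap, and no test between roles was made. The cyclin and CDK genes were the most alike, and the midzone genes spread the widest of the 4 roles.

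The make-up of the 37 genes was also compared within libraries, as each gene's share of their summed CPM, a measure that no scaling between libraries can move. Groups overlapped in 26 genes and did not overlap in 11, with 6 higher and 5 lower shares in knockout libraries. For all genes tested only CPM can be set beside this, an unlike measure. There 28.7% had all knockout libraries above and 27.6% all below wild type. Shares have a fixed sum, so a gene that rose less than the others took a smaller share. The 5 genes with lower shares were Plk1, Anln, Tpx2, Espl1 and Kif18a, and none of them was called lower in CPM. Kif23 took 1.29% ± 0.16 of the sum in wild type and 2.37% ± 0.22 in knockout libraries (SD, n = 3 each), and Bub1 took 0.83% ± 0.12 and 1.30% ± 0.08. Tpx2 took 6.35% ± 0.40 and 4.06% ± 0.06 of the sum, and Anln 6.31% ± 0.47 and 4.91% ± 0.80. Espl1 took 1.57% ± 0.19 and 0.98% ± 0.07, and Kif18a, the scarcest gene, 0.21% ± 0.06 and 0.10% ± 0.02. An exact two-sided permutation test of 3 libraries against 3 cannot give a p below 0.1, which any gene with groups apart reaches. Adjusted by Benjamini-Hochberg over the 37 genes, the smallest p of this permutation test was 0.336. These shares are therefore given as a description only.

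Kinesins were then compared by their work. Of the 10 kinesin genes among the 37 (9 Kif genes and Cenpe), 9 rose and 0 fell, with a median of 0.86. Of 6 further kinesin genes of spindle and centriole, 4 rose and 2 were not called, with a median of 1.22. Among them Kifc1, a minus-end motor that focuses spindle poles, rose by 1.61 ± 0.08 from 20.7 ± 1.53 to 63.2 ± 4.61 CPM, and Kif18b, a regulator of astral microtubules, by 1.24 ± 0.10. Kifc5b rose by 1.31 ± 0.13, but it is a close copy of Kifc1, so their reads may be shared and both values are uncertain. Kinesins of transport, cilia and signalling and their light chains had 8 genes higher and 8 lower of 27 tested (29.6% each way, near the 24.8% and 23.7% of all genes tested), with 11 not called and a median of 0.02. In that list Kif26a, an atypical kinesin of signalling, fell from 120 ± 9.30 to 37.9 ± 2.71 CPM (log2 fold change -1.66 ± 0.07), Kif13b, a membrane cargo motor, fell by 1.45 and Kif3c, a subunit of kinesin-2, rose by 1.52.

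**Figure D4:**
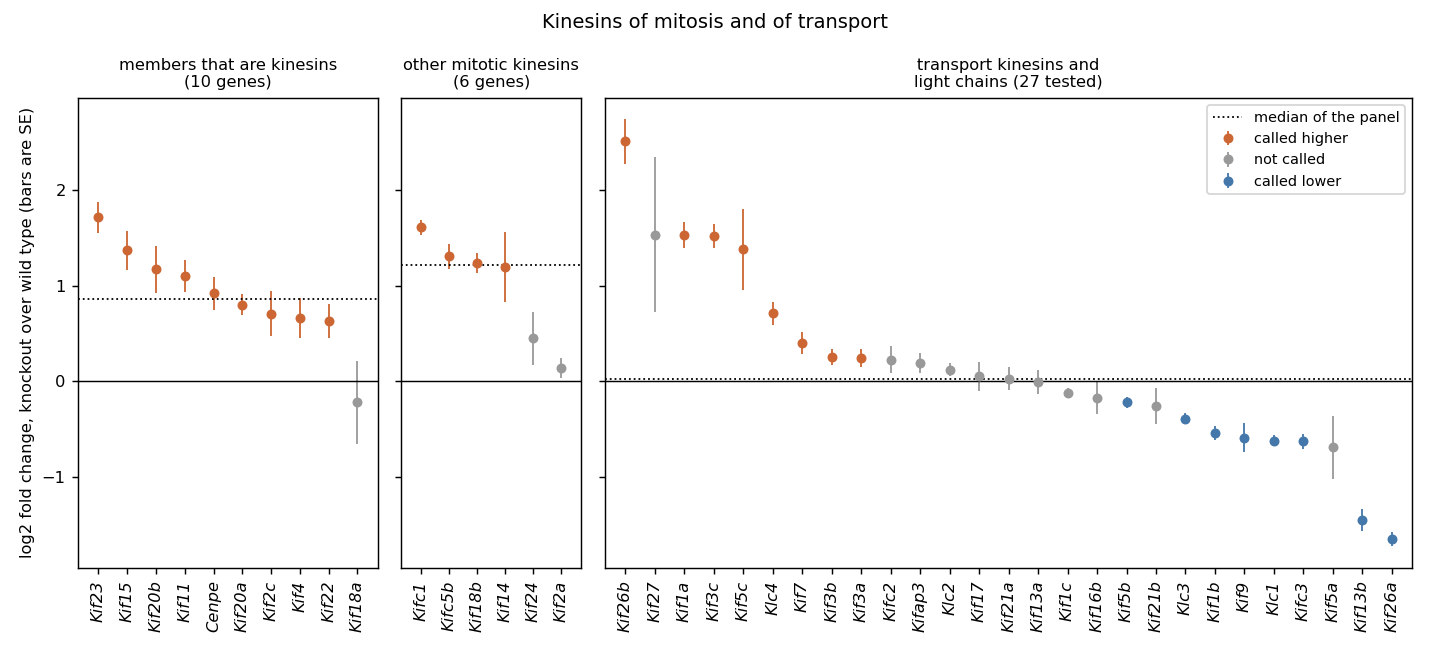
Log2 fold changes (knockout over wild type, bars are SE) of the 10 kinesin genes among the 37, of 6 other mitotic kinesin genes and of 27 tested kinesins of transport and light chains, each panel ordered by size with its median dotted. Medians are 0.86, 1.22 and 0.02, and calls in the lower direction appear in the third panel alone.

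Other genes of mitosis were taken from lists of their roles. Of 161 tested genes in 7 such lists, 86 rose, 20 fell and 55 were not called (53.4% and 12.4%, beside 24.8% and 23.7% of all genes tested), with a median of 0.40. In the list of mitotic entry, 12 of 20 rose and 2 fell. It includes Cks1b, a CDK-binding subunit (1.15 ± 0.09), Mastl, the Greatwall kinase that protects CDK1 substrates (1.61 ± 0.17) and Ccnf, cyclin F (0.81 ± 0.07). In the list of further kinetochore and checkpoint genes, 27 of 41 rose and 2 fell (median 0.65). There Kntc1 and Zwilch, both of the RZZ complex at unattached kinetochores, rose by 1.73 ± 0.16 and 1.28 ± 0.18, and Cenpt, a centromere subunit that recruits NDC80, by 0.61 ± 0.07. Of 34 spindle and centrosome genes 21 rose and 2 fell (median 0.45), with Ckap2 at 2.00 ± 0.10, Fam83d at 1.20 ± 0.13 and Psrc1 at 0.92 ± 0.07.

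Complexes that also work outside mitosis made up the next lists. Of 18 genes of the APC/C and its regulators, 6 rose, 2 fell and 10 were not called (median 0.09). These shares, 33.3% and 11.1%, are to be read beside the 24.8% higher and 23.7% lower of all genes tested, as are those of the next lists. Anapc4, a scaffold subunit, rose by 0.76 ± 0.08 and Anapc16 by 0.39 ± 0.07, as did Pttg1, given above. Of 20 condensin and cohesin genes 8 rose (40%) and 3 fell (15%), with a median of 0.30, and the 3 with the smallest p were all of condensin: Smc2 (0.89 ± 0.12), Ncaph (1.01 ± 0.13) and Ncapd2 (0.90 ± 0.13). Of 22 further genes of cytokinesis and abscission 8 rose (36.4%) and 9 fell (40.9%), with a median of 0.00. They include Septin9 up by 1.68 ± 0.10, and Diaph1, an actin-nucleating formin, and Vps4b, an ESCRT ATPase, down (log2 fold changes -0.73 and -0.40). All 5 members of the midzone and cytokinesis role rose, whereas this longer list, with RHOA, myosin, septin and ESCRT genes, went both ways.

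**Figure D5:**
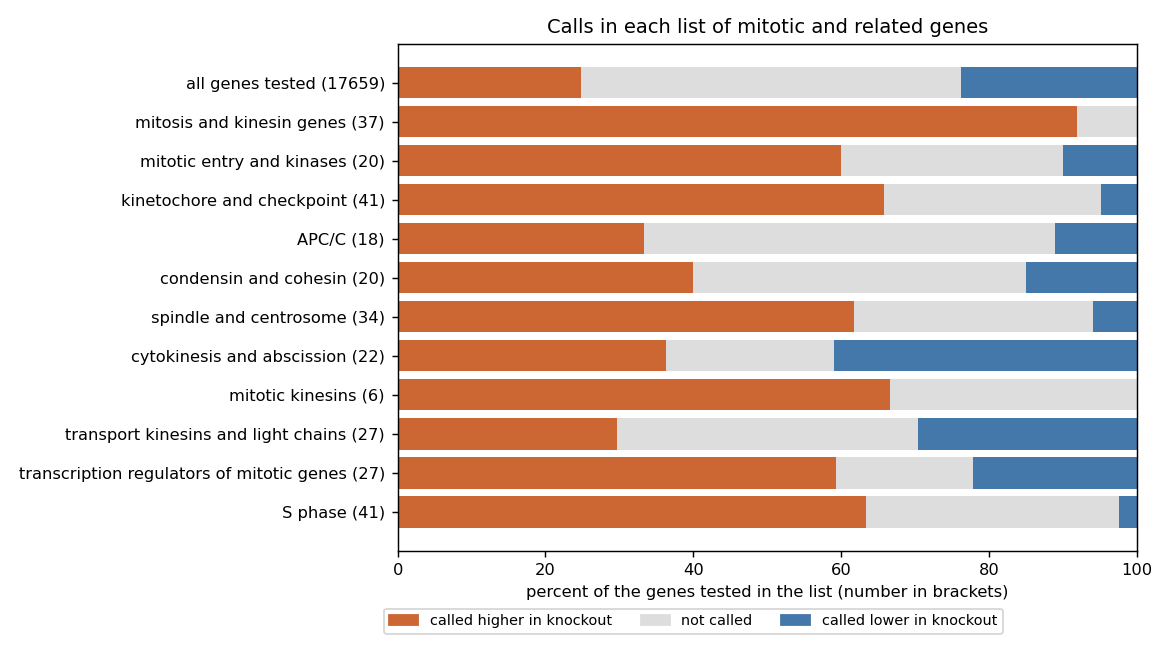
Percent of tested genes called higher (orange), not called (grey) and called lower (blue) in knockout cells, for all genes tested, the 37 mitosis and kinesin genes and 10 lists of related genes, with the number tested in brackets. The 37 genes have 91.9% higher, the kinetochore list 65.9% and the transport kinesins 29.6%, beside 24.8% of all genes tested.

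Genes that control transcription of mitotic genes were called in 22 of 27 cases, with 16 higher (59.3%) and 6 lower (22.2%, median 0.36). Among all genes tested, 24.8% were called higher and 23.7% lower, so the lower share of this list was near that of all genes. The activators Foxm1 and Mybl2 rose by amounts below the lower quartile of the 37 genes (0.71), by 0.46 ± 0.12 (adjusted p = 0.00595) and 0.43 ± 0.15 (adjusted p = 0.0258), and Foxm1 went from 5.50 ± 0.143 to 7.57 ± 0.859 CPM. E2f1, an activator of S phase genes, rose from 6.92 ± 1.02 to 12.9 ± 0.974 CPM (0.90 ± 0.12). The repressors E2f7 and E2f8, close relatives, went opposite ways: E2f7 rose by 0.42 ± 0.13 (adjusted p = 0.011) and E2f8 fell from 18.3 ± 2.19 to 6.14 ± 0.751 CPM (log2 fold change -1.58 ± 0.12). Of the DREAM subunits, E2f4 fell from 81.9 ± 3.31 to 60.9 ± 1.10 CPM (-0.43 ± 0.06). The pocket protein genes Rbl1 and Rbl2 rose by 0.51 ± 0.15 and 0.55 ± 0.13 and Rbbp4 by 0.47 ± 0.07. Other DREAM subunits in the list are not given singly. Trp53 rose by 0.36 ± 0.08 and the CDK inhibitor Cdkn1b by 0.33 ± 0.07, and Cdkn1a, the p53 target that holds cells before mitosis, was not called (0.14 ± 0.08, adjusted p = 0.13). Of 41 S phase genes, 26 rose (63.4%) and 1 fell (2.44%), with a median of 0.48. The median of the 37 genes was 0.92, a difference for which no test was made.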

How the data were processed

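RNA of 3 wild type and 3 Cebpb knockout keratinocyte cultures, all irradiated, was sequenced from both ends (150 bp), as the labels' protocols state. What the authors deposited are raw counts for each Ensembl gene, whole numbers with no sign of normalisation. The submitters' processing notes name FastQC, STAR, HTSeq and DESeq2 and the builds mm39 and GRCm39. Versions, annotation release and strand setting were not given in the sources used here. Symbols were matched by identifier for 52083 of 55416 genes. Identifiers without a symbol (3333) took 0.369% to 0.546% of a library's counts and stayed in the tests.

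Counts were tested with edgeR's quasi-likelihood test (edgeR 4.0.16, R 4.3.3) with robust dispersion, genotype as the only factor, filterByExpr at a minimum of 10 counts and TMM scaling. The standard error of a log2 fold change is the change divided by the square root of F. The test was checked on simulated counts. They were drawn with the same dispersion for every gene, so differences in spread between genes were not part of the check. Changes of genes with few counts were often missed in the simulation. The recovery the test had to reach was therefore reset to genes with more counts after that outcome was seen. Of the members, Kif18a is in the range with few counts. Alternatives were DESeq2 size factors, library totals, no filter, a mean of at least 1 CPM, the tests of DESeq2 1.42.0 and limma voom (limma 3.58.1), and leaving out each library in turn. Groups share no replicate numbers, so no pairing was fitted.

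The members and all lists were chosen with earlier results of these data known. All 37 members are named. Of other lists, the rule names the 3 genes with the smallest p each and 11 regulators chosen by symbol. Genes outside it are marked as named after their values were seen, except cell type markers and genes named only for an exon overlap. The markers named singly were also picked after their values were seen. Listed values were given in full for each cyclin and CDK gene and for the smallest and largest p of each other role. Lin54 and Septin2 were not analysed here. Promoter windows are RefSeq's on GRCm38.p6, and exon overlaps are from GENCODE M21, also on GRCm38. Both are older than the authors' build and were used only for sequence, overlap and chromosome.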

Additional observations from a re-analysis of the deposited data

How the results depend on the processing

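No paired analysis was possible because the wild type and knockout libraries share no replicate numbers. Over 12 alternatives, 31 to 35 of the 37 mitosis genes were called higher and 0 lower, and 29 genes were called higher under every one. The lowest count came from leaving out wild type replicate 1 or knockout replicate 4 or 6, and the highest from library totals. Of the 10 kinesins among them, 8 or 9 were called higher under each alternative. Taken gene by gene, 429 of 443 values kept their direction and their side of the threshold. In 12 the call was lost, all with 1 library left out and all in Ttk, Nuf2, Kif2c, Kif4 or Cdca8, and in 1 it was gained, for Tpx2 with library totals. The change of Kif18a (-0.22) turned to 0.041 without wild type replicate 2 and ranged from -0.42 to 0.041 with single libraries left out, uncalled each time, and the filter at 1 CPM removed it. With library totals, the genes called lower were 2452 in place of 4192 among all genes tested and 18 in place of 35 among 256 tested genes of the other lists (mitosis, transport kinesins, regulators and S phase), and the median of all genes was 0.21 in place of 0.01. Leaving out single libraries gave 112 to 128 higher and 28 to 35 lower in those 4 kinds of list, and 3781 to 4251 higher and 3719 to 4071 lower among all genes. Depth limits Kif18a most, with 20 to 45 counts in a library.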
